A study of Mus musculus with 84 samples.

Results

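The effect of MLL-ENL on gene expression was measured in granulocyte-monocyte progenitors (GMP) sorted from mouse liver on the day of birth (P0). The compared libraries were chosen by their labels: 4 from MLL-ENL mice and 4 from control mice, 8 of the 84 libraries of the study. All mouse genes of the count table were considered. Control mice carry the genotype label wild type, and the other group carries MLL-ENL, a tetracycline-regulated transgene. Both groups are labelled No dox and as a fetal induction, so that neither received doxycycline per its label. The study asks how the efficiency of leukemia initiation by MLL-ENL changes with age. Gene tests drew their spread from 47 libraries of progenitors taken at P0 and 10 weeks. Read beside P0 GMP are less mature P0 progenitors and 10 week GMP of both genotypes. So is a set of 10 week GMP labelled MLL-ENL (x2), with its own controls. These are also labelled No dox. The promoter that drives the transgene, the strain, the sort gates and any pooling of animals are, in the sources used here, not given. The P0 GMP libraries are numbered replicate 2 to 5 in both genotypes. The labels do not say whether these came from separate animals, so p-values measure only the spread between libraries.

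MLL-ENL joins the start of KMT2A (MLL), a chromatin protein that binds unmethylated CpG DNA through its CXXC domain, to part of MLLT1 (ENL), a protein of complexes that promote transcription elongation. The fusion keeps genes of early progenitors active, best known among them the homeobox gene Hoxa9, its neighbours in the Hoxa cluster and the cofactor gene Meis1. GMP stand downstream of the pre-granulocyte-monocyte progenitors (pGM) and of the less committed progenitors labelled HPC. They give rise to neutrophils and monocytes and normally hold less Hoxa9 and Meis1 than stem cells do.

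The 8 libraries held 10.75 to 17.59 M (mega) counts on mouse genes each. The 12 pairs of libraries within a group all differed beyond counting noise (chi-square per degree of freedom 38.52 to 117.52). Mitochondrial genes took 0.39 to 2.47% of control counts and 0.51 to 2.9% of MLL-ENL counts. Transcripts of Xist together with Y-linked genes were present in 5 of the 8 libraries, namely control replicates 2 and 4 and MLL-ENL replicates 2, 3 and 4. Control replicates 3 and 5 held Y-linked transcripts only, and MLL-ENL replicate 5 held Xist only. None of 5 sex-linked genes passed the test between genotypes, but their median log2 fold change was -1.43 against 0.01 over all genes. The groups are thus not shown to be alike in sex.

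Human transgene reads, the sum of those on KMT2A and MLLT1, checked the genotype labels. Controls stood at 0.315, 0.072, 0.063 and 0.0 CPM (counts divided by the library's mouse counts in M) in replicates 2 to 5. MLL-ENL libraries stood at 8.0, 3.07, 3.156 and 5.895 CPM. Every MLL-ENL library thus lay above every control. The means were 5.03 ± 2.38 CPM and 0.11 ± 0.14 CPM (SD, n = 4 each; 2-sided exact permutation p = 0.0286, the smallest that 4 against 4 allows; adjusted p = 0.0381 over 4 comparisons by Benjamini-Hochberg). With the replicate numbers taken as pairs, MLL-ENL was higher in 4 of 4 pairs, and an exact permutation within pairs gave p = 0.125, the smallest it allows. MLL-ENL GMP held less transgene RNA than MLL-ENL HPC, at 15.57 ± 3.87 CPM, and than pGM, at 10.65 ± 1.4 CPM (SD, n = 4 each; exact permutation, adjusted p = 0.0381 for both). It was lower in 4 of 4 pairs in both comparisons (exact permutation within pairs, p = 0.125 for both). GMP taken at 10 weeks stood at 1.77 ± 1.74 CPM (n = 4; exact permutation p = 0.0857). Mouse Kmt2a and Mllt1 did not pass the test of genotype. Kmt2a stood at 24.1 ± 11.6 CPM with MLL-ENL against 27.1 ± 8.21 CPM in controls, both scaled by TMM. Mllt1 had a log2 fold change of -0.20 ± 0.26. From here on levels are CPM scaled by TMM, and changes are log2 fold changes ± SE from edgeR's quasi-likelihood F test with Benjamini-Hochberg adjusted p over all genes tested.

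Defining genes of GMP were abundant in both groups. The myeloperoxidase gene Mpo stood at 37200, 61500, 46900 and 54000 CPM in the controls and at 25100, 66300, 32100 and 46700 CPM in MLL-ENL libraries, replicates 2 to 5. All 15 GMP markers were tested and none passed, with a median log2 fold change of -0.11 against 0.01 over all genes. Their summed level ranged from 49100 to 91000 CPM in controls and from 33700 to 96400 CPM with MLL-ENL. Eosinophil and late neutrophil genes varied far more between libraries of the same genotype. Prg2, the major basic protein of eosinophils, ranged from 9660 to 54300 CPM in controls and from 20400 to 96500 CPM with MLL-ENL. The late neutrophil granule gene Ngp ranged from 359 to 9660 CPM and from 613 to 13200 CPM, with replicate 2 lowest in both genotypes. In bulk samples, fewer cells of a type and less RNA per cell cannot be told apart.

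Few genes passed the test between MLL-ENL and control GMP in the fit of 47 libraries. Among them the steepest rises were larger than the steepest falls. Of 14899 genes tested, 12 were higher and 5 lower at an adjusted p under 0.05, which is 0.0805% and 0.0336%. At an unadjusted p under 0.05 there were 897. The rises were Sva, Cpvl, Skida1, Hoxa10, Pcdh7, Hnf4a, Hoxa9, A930004D18Rik, H2-Ob, Meis1, Hoxa7 and Pkib. The falls were Plxdc2, C1qtnf6, Maged1, Ifitm1 and Fut10. Between the groups 16 of the 17 did not overlap (background 2.38% of genes higher and 1.78% lower without overlap), the exception being Fut10. All 17 moved the same way in 4 of 4 pairs of equal replicate number (background 11% higher and 10.3% lower). With the replicate number as a block, 13 rose and 8 fell (0.0873% and 0.0537%), 16 of them shared with the test without it, Pkib being lost at an adjusted p of 0.05. With the block and the 8 libraries fitted alone, a fit chosen after seeing the data, 157 genes passed (1.29% of 12124). Of these 100 were higher and 57 lower (0.825% and 0.47%). The common coefficient of variation between libraries was 0.173 in that fit and 0.297 in the fit of 47 libraries without the block. The number of calls thus depended on the libraries and pairing used for the spread. RLE in place of TMM scaling left 12 higher and 2 lower, and 11 genes passed without control replicate 3.

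**Figure D1:**
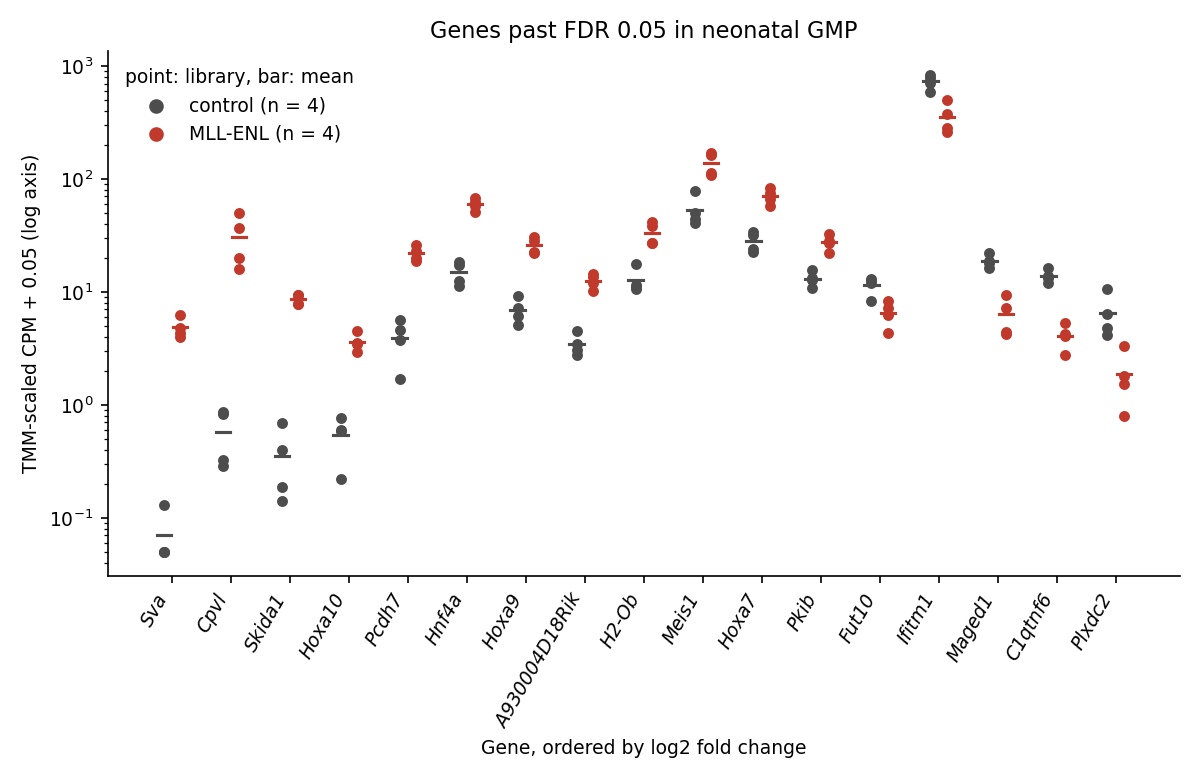
Levels of the 17 genes past the test in neonatal GMP, ordered by log2 fold change, on a log axis of TMM-scaled CPM with 0.05 added so that zeros can be drawn; each point is a library and each bar the mean of 4. The groups are apart in 16 of 17 genes and overlap in Fut10, while levels differ from under 1 CPM (Sva in controls) to 839 CPM (Ifitm1 in a control).

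The Hoxa cluster and Meis1 carried the best-known part of the response. Hoxa9, a homeobox transcription factor that sustains progenitor self-renewal, stood at 9.08, 6.05, 7.13 and 5.06 CPM in control replicates 2 to 5 and at 30.9, 22.2, 28.2 and 22.7 CPM with MLL-ENL. The lowest MLL-ENL library was thus above the highest control, and the means were 26.0 ± 4.26 and 6.83 ± 1.72 CPM (SD over n = 4 in each group). The log2 fold change was 1.92 ± 0.23 (adjusted p = 1.6e-06, edgeR). Hoxa7, next to it, stood at 33.8, 23.8, 32.1 and 22.3 CPM in controls and at 57.4, 75.7, 82.7 and 66.4 CPM with MLL-ENL (1.33 ± 0.17, 6.4e-06). Hoxa10, on the other side of Hoxa9, was scarce in controls at 0.717, 0.173, 0.544 and 0.542 CPM and reached 4.43, 3.46, 3.41 and 2.87 CPM with MLL-ENL (2.81 ± 0.45, 0.00039). Meis1, whose protein binds DNA together with Hoxa9, was at 77.9, 44.3, 49.9 and 40.9 CPM in controls and at 164, 114, 109 and 169 CPM with MLL-ENL (1.38 ± 0.23, 0.00041). None of these 4 genes overlapped between genotypes.

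The other tested Hoxa genes did not pass. Of 11 Hoxa genes 8 were tested and 3 rose. All 8 fold changes were positive, with a median of 1.42 against 0.01 over all genes. Between genotypes 5 did not overlap (background 2.38% of genes higher), the scarce Hoxa4 among them. Hoxa5 was at 0.717, 0.432, 0.476 and 0.542 CPM in controls and at 1.84, 1.27, 1.41 and 1.74 CPM with MLL-ENL (1.51 ± 0.40, 0.21), without overlap. Hoxa2 had 1 count over all controls and 7 over all MLL-ENL libraries, Hoxa4 had 9 and 20, Hoxa3 had 4 and 7, and Hoxa6 had 5 and 7. Hoxa13 had 0 counts and 1, and Hoxa11 had none in either group, and these were not tested. The antisense transcript Hoxaas3, which overlaps Hoxa3 and Hoxa7, had 138 counts in controls and 152 with MLL-ENL (0.28 ± 0.41, 0.96). The sources used here do not give the strand setting of the counting, so reads of overlapping Hoxa genes and antisense transcripts cannot be told apart. In the annotation (GENCODE vM21, GRCm38) the called genes lie on the minus strand of chromosome 6, Hoxa7 at 52214491 to 52221854, Hoxa9 at 52223100 to 52231089 and Hoxa10 at 52231197 to 52240854. Meis1 lies on chromosome 11 at 18879817 to 19018985.

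**Figure D2:**
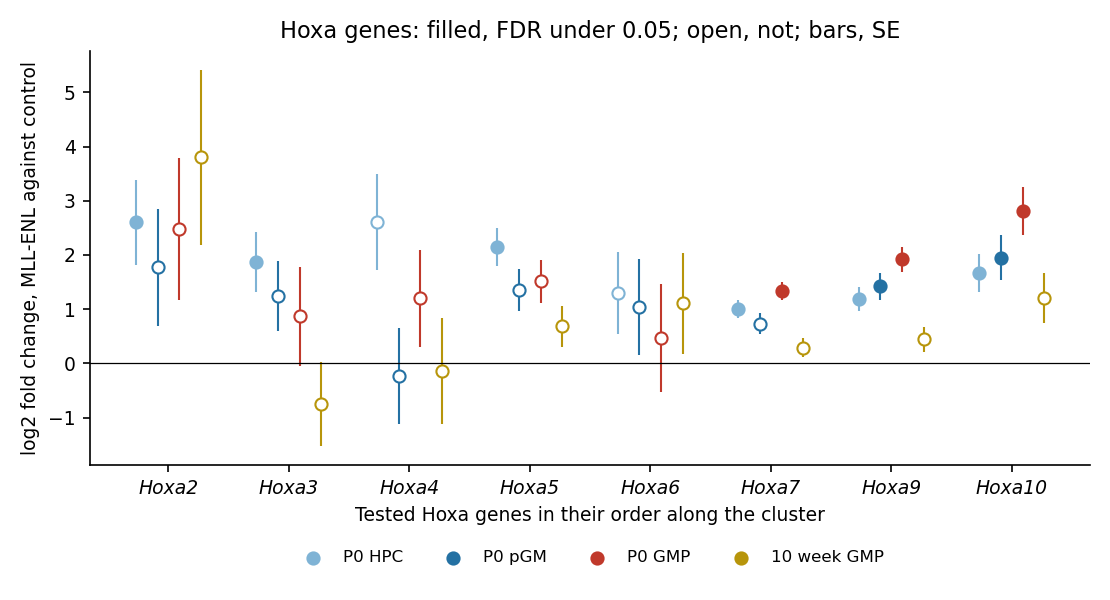
Log2 fold changes with SE of the 8 tested Hoxa genes in their order along the cluster, in neonatal HPC, pGM and GMP and in 10 week GMP; filled points passed an adjusted p of 0.05. In neonatal GMP the filled points are Hoxa7, Hoxa9 and Hoxa10, at 1.33, 1.92 and 2.81.

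Because the MLL part of the fusion binds unmethylated CpG, the CpG content of the start regions of called genes is shown for 3 genes that rose and 1 that fell. The sequences are the 250 bases before the RefSeq start on GRCm38.p6, read 5′ to 3′ on the gene's strand, with every CG in capitals. Hoxa9 is taken from chr6:52227371-52227620 (minus strand), inside an intron of its longer GENCODE model, Hoxa10 from chr6:52240855-52241104 (minus), Sva from chr6:42038144-42038393 (plus) and C1qtnf6 from chr15:78529652-78529901 (minus), also inside its GENCODE model. None of the 4 windows covers a GENCODE exon.
Hoxa9: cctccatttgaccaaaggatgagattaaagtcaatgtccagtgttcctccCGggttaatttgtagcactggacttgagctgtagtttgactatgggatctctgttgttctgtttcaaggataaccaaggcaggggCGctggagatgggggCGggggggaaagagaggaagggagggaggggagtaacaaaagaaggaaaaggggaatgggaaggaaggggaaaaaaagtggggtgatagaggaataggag
Hoxa10: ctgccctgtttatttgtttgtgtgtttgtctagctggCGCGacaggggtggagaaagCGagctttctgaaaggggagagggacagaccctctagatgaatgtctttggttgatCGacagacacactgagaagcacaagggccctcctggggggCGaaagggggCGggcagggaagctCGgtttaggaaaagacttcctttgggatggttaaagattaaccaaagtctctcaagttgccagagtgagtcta
Sva: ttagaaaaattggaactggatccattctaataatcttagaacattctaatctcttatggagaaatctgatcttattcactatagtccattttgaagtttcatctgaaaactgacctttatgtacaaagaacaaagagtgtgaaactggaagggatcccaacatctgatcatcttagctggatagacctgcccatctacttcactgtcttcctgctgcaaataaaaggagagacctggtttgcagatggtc
C1qtnf6: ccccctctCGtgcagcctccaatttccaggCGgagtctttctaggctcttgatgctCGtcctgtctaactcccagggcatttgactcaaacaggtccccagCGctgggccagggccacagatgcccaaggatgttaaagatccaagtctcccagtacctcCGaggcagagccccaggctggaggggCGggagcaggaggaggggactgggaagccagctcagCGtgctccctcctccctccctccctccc
Hoxa10 and C1qtnf6 each hold 7 CG, Hoxa9 holds 3 and Sva none. RefSeq windows were matched for 13 of the 17 called genes, 10 higher and 3 lower. The number of CG ran from 0 to 13 among the 10 that rose, with a median of 3.5, and had a median of 7 among the 3 that fell. Over 10795 matched windows of tested genes the median was 15 (quartiles 8 and 22). The letters TGACAG, a core to which Meis proteins are known to bind, were found on either strand in 2 of the 13 windows (those of Maged1 and A930004D18Rik) and in 15.9% of all 27025 windows. Such matches describe the sequence only.

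Skida1 and its neighbour rose together on chromosome 2. Skida1, named for its SKI/DACH domain, stood at 0.637, 0.346, 0.136 and 0.0903 CPM in controls and at 7.75, 9.25, 7.73 and 9.43 CPM with MLL-ENL. It went from near absence in controls to a similar level in all 4 MLL-ENL libraries, 8.54 ± 0.931 CPM (4.78 ± 0.57, 1.5e-06). A930004D18Rik, a transcript 2939 bases away on the same strand, was at 2.71, 3.02, 3.40 and 4.43 CPM in controls and at 10.1, 11.9, 13.5 and 14.3 CPM with MLL-ENL (1.88 ± 0.39, 0.024). Skida1 lies at chr2:18040676-18049051 and A930004D18Rik at chr2:18025193-18037737. The next gene, Mllt10, a partner of MLL in other fusions that takes part in methylation of histone H3, stood at 41.4 ± 4.63 CPM in controls and 51.6 ± 2.22 CPM with MLL-ENL (0.32 ± 0.14, 0.78); it did not overlap but did not pass the test.

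The steepest rises were those of Sva and Cpvl, both on chromosome 6. Sva, the gene of a secreted seminal vesicle antigen, had 1 count over the 4 controls and 220 over the 4 MLL-ENL libraries, a ratio of 235 with a 95% counting interval from 41.7 to 9310. It stood at 4.24, 3.96, 4.73 and 6.25 CPM with MLL-ENL, against 0.0796 CPM in control replicate 2 and 0 in the other controls (adjusted p = 1.7e-08, edgeR). Cpvl, a serine carboxypeptidase gene known from macrophages and dendritic cells, stood at 0.239, 0.778, 0.272 and 0.813 CPM in controls. With MLL-ENL it reached 16, 20.0, 36.4 and 50.1 CPM, so that all 4 libraries lay far above the controls but differed among themselves (30.6 ± 15.7 CPM; 5.87 ± 0.71, 2e-06). Cpvl, at chr6:53873279-53978671, lies 1632 kb from Hoxa10, and Sva lies at chr6:42038394-42042851. In all, 5 of the 17 called genes were on chromosome 6, which holds 5.3% of tested genes, and 4 on chromosome 2, which holds 7.91%. These counts include the adjacent Hoxa7, Hoxa9 and Hoxa10 and the neighbours Skida1 and A930004D18Rik, so the genes are not independent positions.

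Cpvl rose without the other dendritic cell genes. Of 18 dendritic cell genes tested it alone passed, and the list had a median of -0.24, with 4 fold changes above 0. The summed level of the list was 1020 to 1200 CPM in controls and 1010 to 1420 CPM with MLL-ENL. Of 25 monocyte and macrophage genes none passed (median -0.16), with sums of 1650 to 4510 and 1550 to 4420 CPM.

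Pcdh7 and Hnf4a rose as well. Pcdh7, a protocadherin of cell adhesion, stood at 5.65, 1.64, 3.74 and 4.52 CPM in controls and at 18.7, 20.1, 22.9 and 25.9 CPM with MLL-ENL (2.49 ± 0.36, 4.5e-05). Hnf4a, a nuclear receptor best known from hepatocytes and gut, stood at 18.5, 11.2, 17.2 and 12.4 CPM in controls and at 58.1, 61.9, 50.5 and 68.4 CPM with MLL-ENL (2.01 ± 0.30, 0.0001). Neither gene overlapped between genotypes. Since the cells came from liver, hepatocyte genes were read beside Hnf4a. Of 13 tested it was the only one to pass, with a list median of 0.07. The albumin gene Alb was at 0.272 to 1.51 CPM in controls and 0.718 to 1.38 CPM with MLL-ENL, and Apoc3 was at 0 in all 8 libraries. The summed hepatocyte list, most of it haptoglobin (Hp), which myeloid cells also make, was 642 to 1940 CPM in controls and 561 to 2280 CPM with MLL-ENL.

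Genes of MHC class II antigen presentation did not move 1 way. H2-Ob, a chain of the H2-O protein that restrains peptide loading, stood at 17.8, 10.6, 11.1 and 11.4 CPM in controls and at 41.2, 27.0, 27.0 and 38.4 CPM with MLL-ENL (1.39 ± 0.30, 0.04). Its partner chain H2-Oa was at 33.9 ± 6.36 CPM in controls and 55.0 ± 14.6 CPM with MLL-ENL (0.70 ± 0.22, 0.43). The peptide loader H2-DMa was at 155, 138, 108 and 118 CPM in controls and at 180, 292, 191 and 234 CPM with MLL-ENL (0.79 ± 0.20, 0.15), without overlap. The invariant chain Cd74 lay the other way: it stood at 64.5, 32.4, 15.8 and 32.6 CPM in controls and at 21.5, 6.22, 5.65 and 5.95 CPM with MLL-ENL (-1.89 ± 0.52, 0.25). Both groups were highest in replicate 2, and with the replicate block the fall passed the test (-1.97 ± 0.40, 0.022). The class II chains H2-Aa (-1.68 ± 0.57, 0.53) and H2-Eb1 (-1.55 ± 0.57, 0.63) had fold changes below 0 and did not pass. Of the 10 class II genes tested, 1 rose without the block, and 1 rose and 1 fell with it. The median was 0.21, and the summed level was 200 to 361 CPM in controls and 351 to 435 CPM with MLL-ENL.

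Pkib, a gene for an inhibitor of protein kinase A, was the smallest of the rises. It stood at 13.1, 15.7, 10.8 and 12.6 CPM in controls and at 27.2, 32.5, 22.2 and 28.3 CPM with MLL-ENL (1.08 ± 0.23, adjusted p = 0.04, edgeR). The groups did not overlap, and the call was lost in 14 of 22 alternatives.

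C1qtnf6 had the smallest adjusted p of the 5 genes that fell. C1qtnf6, a secreted protein related to complement C1q, stood at 13.7, 11.9, 13.1 and 16.4 CPM in controls and at 4.15, 5.30, 2.74 and 4.0 CPM with MLL-ENL (-1.76 ± 0.27, 0.00014). It was the only fall called in all 22 alternatives. Maged1, an X-linked gene of the MAGE family, stood at 18.6, 18.1, 16.2 and 22 CPM in controls and at 4.33, 7.21, 4.15 and 9.43 CPM with MLL-ENL (-1.58 ± 0.30, 0.0076). Plxdc2, a membrane protein with a plexin domain, was at 4.78, 6.31, 4.14 and 10.6 CPM in controls and at 1.75, 1.48, 0.748 and 3.28 CPM with MLL-ENL (-1.84 ± 0.41, 0.045). In each of these 3 genes the highest MLL-ENL library lay below the lowest control. Ifitm1, an interferon-inducible membrane protein, was the most abundant gene called. It stood at 839, 782, 707 and 589 CPM in controls and at 499, 284, 373 and 260 CPM with MLL-ENL (-1.04 ± 0.23, 0.045). Fut10, a fucosyltransferase gene, was at 12.9, 12.0, 8.29 and 12.6 CPM in controls and at 8.30, 6.15, 4.24 and 7.18 CPM with MLL-ENL (-0.83 ± 0.18, 0.045). MLL-ENL replicate 2 was above control replicate 4 in Fut10, though all 4 numbered pairs fell.

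The replicate block added 5 genes. Lat2, an adaptor of immune receptor signaling, was at 84.5 ± 22 CPM in controls and 158 ± 46.0 CPM with MLL-ENL (0.90 ± 0.17, adjusted p = 0.012 with the block and 0.072 without). H2-T23, a non-classical MHC class I gene, was at 190 ± 23.7 against 313 ± 91.2 CPM (0.69 ± 0.14, 0.022 with the block). Ica1, an islet cell autoantigen that takes part in vesicle traffic, fell from 54.7 ± 18 to 29.3 ± 13.5 CPM (-0.93 ± 0.19, 0.021). Smc2, a core subunit of condensin, fell from 158 ± 11.4 to 103 ± 22.9 CPM (-0.65 ± 0.13, 0.022 with the block and 0.066 without). Cd74, described above, was the fifth.

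Other known targets of MLL fusions did not move as a group. Of 17 tested outside the Hoxa cluster 2 rose, Meis1 and Skida1. The list had a median of 0.13, and its summed level was 1630 to 1930 CPM in controls and 1410 to 2060 CPM with MLL-ENL. The transcription factor gene Mecom, a target in stem cells, was at 0.557, 1.56, 1.77 and 0.361 CPM in controls and 3.04, 2.90, 1.58 and 1.85 CPM with MLL-ENL (1.11 ± 0.45, 0.71), with overlap. Of 16 genes for cofactors of MLL fusions none passed (median -0.09). Of the 20 stem and multipotent progenitor genes Hoxa9 and Meis1 rose, the same genes as above, while the list had a median of -0.17 and 12 of its fold changes lay at or below 0. Among these Tie1, an endothelial and stem cell receptor, was at 16.4 ± 2.0 against 8.37 ± 0.607 CPM (-0.97 ± 0.28, 0.32).

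Genes of granulocyte-monocyte differentiation did not pass the test in the fit of 47 libraries. None of 16 transcription factors passed (median 0.11). Gata2 was at 110 ± 26.6 CPM in controls and 166 ± 41.6 CPM with MLL-ENL, higher in 4 of 4 numbered pairs (0.6 ± 0.26, 0.78). Spi1, the gene of PU.1, stood at 23.5 ± 2.92 CPM in controls and 25.7 ± 3.81 CPM with MLL-ENL, and Cebpa, which drives formation of GMP, at 33.6 ± 9.65 and 31.7 ± 4.48 CPM. None of 16 growth factor receptors passed (median -0.09), among them Csf1r (-0.47 ± 0.55, 0.94) and Kit (-0.09 ± 0.28, 0.98). Csf3r (-0.48 ± 0.21, 0.78) was lower and Il3ra (0.72 ± 0.33, 0.79) higher in 4 of 4 numbered pairs. None of 11 primary granule genes passed (median -0.11, with no fold change above 0). Ms4a3, also a GMP marker, was at 1490 ± 356 CPM in controls and 810 ± 307 CPM with MLL-ENL (-0.88 ± 0.64, 0.9). It was lower in 4 of 4 numbered pairs. Of the 15 late neutrophil genes none passed (median 0.61, 11 above 0), with sums of 1560 to 26500 CPM in controls and 2500 to 36100 CPM with MLL-ENL. Of 10 eosinophil genes none passed (median 0.63, 9 above 0), with sums of 11300 to 66200 CPM and 24800 to 111000 CPM. The 8 libraries fitted alone with the block had 0.825% of all genes higher and 0.47% lower. In that fit 8 late neutrophil genes, 4 eosinophil genes and 1 transcription factor, Gata2, rose, and 1 primary granule gene, Ms4a3, fell. Prg2, for example, was higher with MLL-ENL in each numbered pair. It stood at 9660, 17400, 26600 and 54300 CPM in controls and 23100, 20400, 96500 and 91800 CPM with MLL-ENL. Its change was 1.10 ± 1.07 (0.94) in the fit of 47 libraries without the block. With the 8 libraries alone and the block it was 1.02 ± 0.22 (adjusted p = 0.044, edgeR).

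Genes of other blood and liver cells gave no call beyond Hnf4a. Of 15 mast cell and basophil genes none passed (median -0.01), with sums of 4700 to 18900 CPM in controls and 5410 to 14800 CPM with MLL-ENL. When the 8 libraries were fitted alone with the block, 2 of the 15 rose and 5 fell (background 0.825% of genes higher and 0.47% lower). The tryptase gene Tpsb2 was at 4640, 1200, 857 and 8790 CPM in controls and at 3260, 169, 239 and 2400 CPM with MLL-ENL (-1.35 ± 0.91, 0.88), lower in each numbered pair. The carboxypeptidase gene Cpa3, of the same granules, was at 1100 ± 600 and 1260 ± 438 CPM. Erythroid (18 tested, median -0.29), megakaryocyte (13, -0.03), lymphoid (16, -0.14) and T and NK cell genes (14, -0.29) had no call, the last with a summed level of 20.9 to 39.4 CPM in controls and 28.1 to 41.4 CPM with MLL-ENL. Of 9 stromal and endothelial genes none passed (median -0.37), and Col1a2, Col3a1 and Lum were at 0 in all 8 libraries. None of 10 sorting antigens passed (median -0.05).

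Mitosis genes had fold changes below 0 in nearly every case. Of 24 tested none passed, while 23 fold changes lay below 0 and the median was -0.48 against 0.01 over all genes. When the 8 libraries were fitted alone with the block, 3 of the 24 fell (background 0.47% of genes lower). Between genotypes 10 of the 24 did not overlap, all lower (background 1.78%). Their summed level was 2380 to 2920 CPM in controls and 1790 to 2030 CPM with MLL-ENL, so that the sums did not overlap. Hmmr, a spindle protein, was at 37.4, 48.7, 45.5 and 54.9 CPM in controls and at 33.8, 27.5, 25.3 and 27.6 CPM with MLL-ENL (-0.71 ± 0.16, 0.077). Top2a, the topoisomerase that untangles chromosomes, was at 472 ± 90.3 and 303 ± 25 CPM (-0.64 ± 0.19, 0.32). The checkpoint kinase gene Bub1b was at 108, 143, 145 and 115 CPM in controls and at 86.2, 89.4, 83.3 and 85.8 CPM with MLL-ENL (-0.57 ± 0.23, 0.70). In HPC 17 of the 24 mitosis genes were called lower (median -0.69, background 5.18% of genes lower). In pGM none of them passed (median -0.26). Of 26 DNA replication genes none passed in GMP (median -0.19), 3 without overlap and lower. Ribosome biogenesis genes had a median of -0.20 (21 tested, no call) and oxidative phosphorylation genes 0.11 (23 tested, no call).

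Of 28 type I interferon genes Ifitm1 fell and no other passed (median 0.15, 21 above 0). Fetal and neonatal genes had a median of 0.0 over 17 tested, and those of the p53 response -0.02 over 16, of cell cycle inhibitors 0.24 over 11 and of NF-kB inflammation 0.08 over 15, without a call. Of 18 immediate early genes none passed (median 0.46). Egr1, one of them, was at 65.3 CPM in MLL-ENL replicate 2 and at 2.25 to 10.7 CPM in the other 7 libraries.

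**Figure D3:**
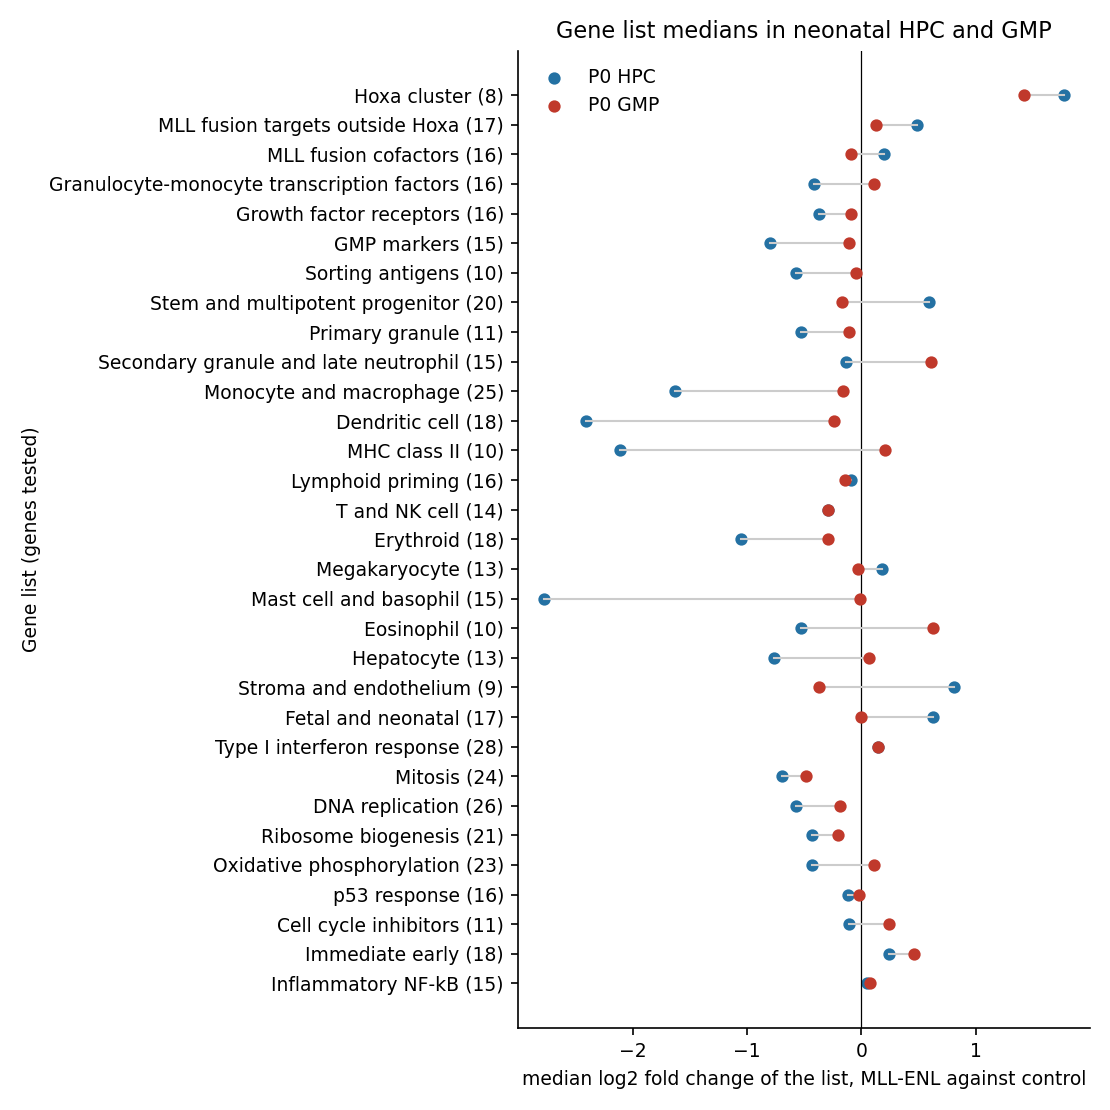
Median log2 fold change between MLL-ENL and control of each gene list in neonatal GMP and HPC, with the number of genes tested in brackets. A check list of sex-linked genes is not drawn. Among the lists drawn, the Hoxa cluster lies highest in GMP at 1.42 and mitosis lowest at -0.48, while MHC class II, dendritic and mast cell lists lie at -2.11, -2.41 and -2.77 in HPC and between -0.24 and 0.21 in GMP.

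The genes that rose in GMP were next read across the less mature populations. Among controls, 10 of the 12 had a higher mean in HPC than in GMP, as did 50.5% of all 14899 genes tested, the exceptions being Sva and Cpvl. Hoxa9 had means of 31.0, 12.0 and 6.83 CPM in control HPC, pGM and GMP of the same age and 70.2, 32.3 and 26.0 CPM with MLL-ENL. Meis1 had 276, 141 and 53.3 CPM in controls and 598, 314 and 139 CPM with MLL-ENL, so that the mean of MLL-ENL GMP was close to that of control pGM. Skida1 stood at 1.48, 0.805 and 0.302 CPM in controls and at 25.1, 14.3 and 8.54 CPM with MLL-ENL. It thus fell from HPC to GMP in both genotypes. Its log2 fold changes were 4.09 ± 0.49, 4.14 ± 0.57 and 4.78 ± 0.57 in HPC, pGM and GMP. Cpvl had the opposite order: in MLL-ENL HPC it had 14 counts over 4 libraries (0.202 CPM), in pGM 4.66 ± 3.27 CPM and in GMP 30.6 ± 15.7 CPM. C1qtnf6 was lower with MLL-ENL in all 3 populations, at 10.7, 4.33 and 4.05 CPM against 19.8, 15.8 and 13.8 CPM. Sva had a similar level with MLL-ENL in HPC, pGM and GMP, at 5.0, 4.72 and 4.8 CPM. Its control means were 0, 0 and 0.0199 CPM.

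**Figure D4:**
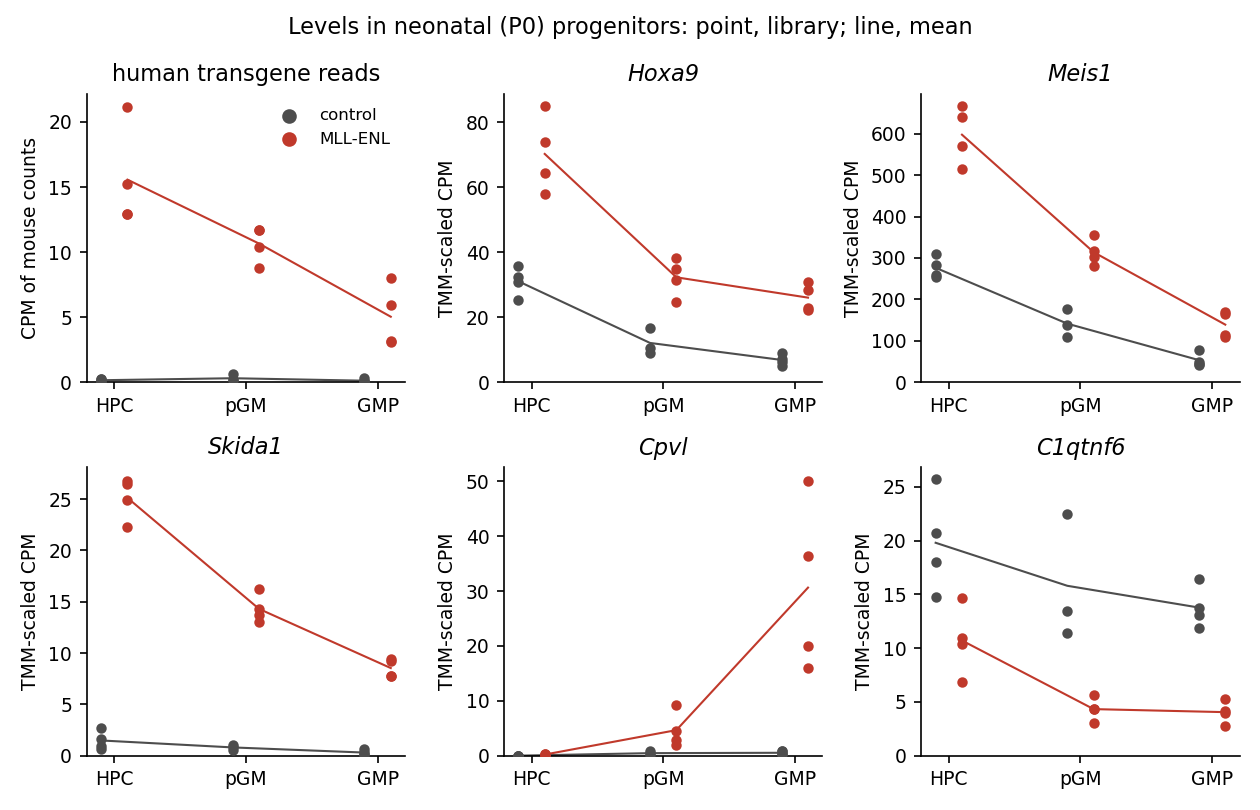
Levels of human transgene reads (CPM of mouse counts) and of 5 genes called in GMP (TMM-scaled CPM) in neonatal HPC, pGM and GMP; points are libraries and lines join the means of controls and of MLL-ENL. Transgene, Hoxa9, Meis1 and Skida1 fall from HPC to GMP, with transgene means of 15.57, 10.65 and 5.03 CPM, while Cpvl is highest in GMP.

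Each neonatal population was compared with its own controls, in separate libraries of 1 fit. In HPC 1133 genes passed (7.6%), 361 higher and 772 lower (2.42% and 5.18%). In pGM, which had 3 control and 4 MLL-ENL libraries, 52 passed (0.349%), 24 higher and 28 lower (0.161% and 0.188%). In GMP 17 passed (0.114%). Of the 17 called in GMP, 15 had the same sign in HPC and 11 were called there too, which is 64.7% of the GMP calls and 0.971% of the HPC calls. In pGM all 17 had the same sign and 11 were called, 21.2% of the pGM calls. H2-Ob and Pkib were the exceptions to the shared sign in HPC, at -0.55 and -0.22.

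A test of the difference between the effects in GMP and HPC passed for 69 genes (0.463%), 58 higher in GMP and 11 lower (0.389% and 0.0738%). Of the 58, 57 fell in HPC, with medians of -1.68 in HPC and 0.27 in GMP. Among the 58 were 4 of the 10 MHC class II genes tested. The genes named first are the 6 with the smallest adjusted p at a mean log2 CPM of 1 or more. H2-Ab1, a class II chain, stood at 1940 ± 768 CPM in control HPC and 250 ± 150 CPM with MLL-ENL, but at 28.9, 16, 8.56 and 18.2 CPM in control GMP and 28.8, 22.7, 31.9 and 32.6 CPM with MLL-ENL (difference of log2 fold changes, GMP minus HPC, 3.65 ± 0.52, adjusted p = 5e-05, edgeR). Cst3, a protease inhibitor abundant in dendritic cells, was at 725, 736, 597 and 690 CPM in control GMP and 703, 932, 868 and 883 CPM with MLL-ENL, against 4050 ± 1320 and 711 ± 169 CPM in HPC (2.81 ± 0.28, 1.6e-08). H2-DMb1 (2.45 ± 0.25, 1.6e-08), H2-DMa (2.33 ± 0.29, 2.8e-06), Gm2a, a cofactor of ganglioside breakdown (1.70 ± 0.26, 0.00013), and the leukocyte antigen gene Cd52 (1.84 ± 0.29, 0.00034) followed. H2-Ab1 and Cst3 were thus less abundant in control GMP than in control HPC. H2-Ob was the only one of the 69 also called in GMP itself (1.93 ± 0.41, 0.014).

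Of the 11 genes whose effect was lower in GMP, 10 rose in HPC, with medians of 1.62 in HPC and -0.39 in GMP. Nsmaf, an adaptor of sphingomyelinase activation, stood at 63.6 ± 9.25 CPM in control HPC and 223 ± 25.8 CPM with MLL-ENL, and at 33.8 ± 1.48 and 37.5 ± 5.26 CPM in GMP (-1.66 ± 0.22, 8.1e-06). Irak3, a brake on Toll-like receptor signaling, was at 3.37 ± 1.07 and 14.6 ± 2.3 CPM in HPC, while GMP held 37.3 ± 9.85 and 32.1 ± 8.99 CPM (-2.33 ± 0.43, 0.0036). Ttc13 (-1.72 ± 0.34), Itih5 (-1.68 ± 0.35), Xdh (-2.79 ± 0.60) and Bicd1 (-1.80 ± 0.41) followed, with adjusted p up to 0.026. Without single GMP libraries the 69 became 40 to 82, with 44, 41 and 40 when control replicate 2, 3 or 4 was left out. Without the 10 week HPC and pGM libraries labelled 73, a fit chosen after seeing the data, 128 passed, 68 of them shared.

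**Figure D5:**
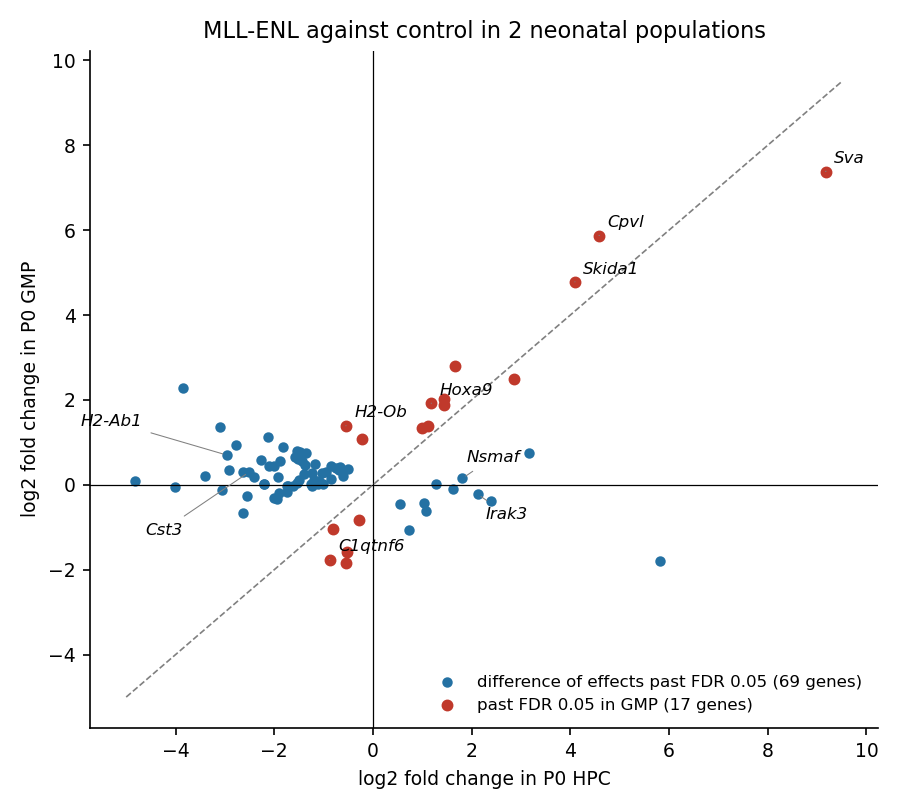
Log2 fold change between MLL-ENL and control in neonatal GMP against that in HPC, for the 17 genes called in GMP (red) and the 69 whose effects differed between the populations (blue); the dashed line marks equal effects, and genes of the blue set were selected by this difference. Red points lie mostly near the line, while most blue points lie near 0 on the GMP axis and to the left on the HPC axis, with H2-Ab1 at -2.96 in HPC and 0.70 in GMP.

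The difference between the effects in GMP and pGM, the latter with 3 controls, passed for no gene (0.0%; edgeR, 372 at an unadjusted p under 0.05, and 2 by DESeq2). Against GMP of 10 week mice, whose own comparison passed for 3 genes (0.0201%; 2 higher, 0.0134%, and 1 lower, 0.00671%), the difference passed for Prdm16 alone (0.00671%; 454 at an unadjusted p under 0.05, 7 by DESeq2). Prdm16, a transcription factor of stem cells, was at 14.4, 10.7, 12.8 and 11.1 CPM in neonatal controls and at 11.3, 7.77, 6.89 and 8.61 CPM in neonatal MLL-ENL GMP. At 10 weeks it stood at 4.56 ± 0.632 CPM in controls and 18.5 ± 6.64 CPM with MLL-ENL (difference -2.53 ± 0.36, adjusted p = 0.0003, edgeR). Sva and C1qtnf6 were the 2 genes called at both ages: at 10 weeks Sva was at 0.0635 ± 0.0846 and 1.57 ± 0.738 CPM, and C1qtnf6 at 28.0 ± 2.03 and 3.77 ± 1.44 CPM. Hoxa9 went from 10.9 ± 1.63 to 14.8 ± 1.35 CPM in the means at 10 weeks (0.44 ± 0.23, 1), and the difference from the neonatal effect was 1.48 ± 0.32 (adjusted p = 0.3). Skida1 had 1 count in the 10 week controls and 5 with MLL-ENL, and transgene reads there were at 0.442 to 4.331 CPM.

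In a separate set of 10 week mice labelled MLL-ENL (x2), a label that the sources used here do not explain, GMP had 128 genes past the test (0.898% of 14260). Of the 17 genes called in neonatal GMP, 15 had the same sign there and 9 were called, namely Hoxa7, Hoxa9, Hoxa10, Skida1, Sva, C1qtnf6, Maged1, Ifitm1 and Fut10. The other 8 were not called there. Meis1, H2-Ob, Pcdh7 and Cpvl had log2 fold changes of 0.04, -0.04, 0.42 and -1.86. Plxdc2, A930004D18Rik, Hnf4a and Pkib had -2.01, 1.91, 1.15 and 0.32. In this set transgene reads stood at 6.88 ± 3.9 CPM (SD, n = 3). The set was fitted on its own, and no test of the difference from neonatal GMP was made.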

How the data were processed

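Per the labels' protocols, RNA came from the Qiagen RNeasy micro plus kit and libraries from a Clontech SMARTer kit. The authors deposited raw counts per Ensembl gene, made with STAR (3.0.4), Subread and featureCounts 1.4.5, per the submitters' processing notes. The sources used here do not give the build, annotation or strand setting. The counts covered 41388 mouse genes and 3 lines for the transgene. GENCODE vM21 (GRCm38) gave symbols and positions for 40254 identifiers, and the other 1134 took 0.172% of counts. Start regions came from RefSeq (GRCm38.p6). Exact 0 means no read, and the intervals reflect counting noise alone, because reads, not independent molecules, were counted.

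The 47 libraries at P0 and 10 weeks were fitted together with edgeR 4.0.16 in R 4.3.3 (TMM, filterByExpr, 1 mean per group, quasi-likelihood F test, Benjamini-Hochberg FDR 0.05), so that all groups shared the estimate of spread; 14899 genes were tested. Differences between effects were contrasts of 4 groups. The numbered libraries were judged to be paired, since the deviations of control and MLL-ENL GMP from their group means correlated at 0.215 to 0.546 for equal numbers and at -0.349 to 0.09 otherwise; the sources used here do not explain the number. In HPC equal numbers correlated at 0.082 to 0.44. Alternatives were the replicate block, RLE scaling, no filter, DESeq2 1.42.0, other sets of libraries, a sex covariate and leaving out each library. Also used were matplotlib 3.10.9, scipy 1.17.1, pandas 2.3.3, limma 3.58.1, numpy 2.4.6 and Python 3.11.15. The scripts were tested on simulated data. In these, 200 genes at 1 CPM or more in control GMP were changed, and no effect of the replicate number was simulated. The fit without the block recovered 58% of 2-fold and 95% of 4-fold changes, so that small changes could be missed. The block gave 52% and 96%, and the 8 libraries alone with the block 28% and 89%. These rates are for 200 changed genes and need not hold for fewer.

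Named were Kmt2a, Mllt1, Hoxa genes, Meis1, every gene past FDR, up to 10 in each direction past it with the block, up to 4 called or 2 other members of each list, and up to 6 in each direction of each difference of effects at a mean log2 CPM (prior count 2) of 1 or more. Mllt10, Hoxaas3, Mpo, Ngp, Prg2, Tpsb2, Cpa3, Alb, Hp, Bub1b, Egr1, Tie1, Mecom, Spi1, Cebpa, Csf1r, Kit and H2-Oa were named, where outside the rule, after their values were seen. So were H2-Aa, H2-Eb1, Apoc3, Col1a2, Col3a1 and Lum. The comparison, gene lists and tests were chosen with earlier results of these data known.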

Additional observations from a re-analysis of the deposited data

Results flagged for a closer look

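In 60 groups of 4 neonatal GMP libraries, 6 held 1 library far from the others by Dixon's test at its 95% critical value. By chance about 1 in 20 would, for continuous normal values. That rate does not hold for a single count beside zeros, as in the controls for Sva and Hoxa2. MLL-ENL replicate 2 was highest in Kmt2a, at 41.4 CPM against 16.9 to 20.1 CPM in the other MLL-ENL libraries, and in Cd74, at 21.5 CPM against 5.65 to 6.22 CPM. Control replicate 2 was highest in H2-Ob, at 17.8 CPM against 10.6 to 11.4 CPM in the other controls, and held the single control count of Sva, at 0.0796 CPM. Hoxa4 stood at 0.748 CPM in MLL-ENL replicate 4, apart from the other MLL-ENL libraries. The only control count of Hoxa2, in replicate 3, amounts to 0.0864 CPM.

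The effect of MLL-ENL in GMP differed from that in HPC by a test of the difference itself (edgeR contrast, GMP minus HPC on the log2 scale) in 4 MHC class II genes: H2-Ab1 by 3.65, H2-DMb1 by 2.45, H2-DMa by 2.33 and H2-Ob by 1.93. It also differed in Cst3 by 2.81, the cathepsin gene Ctsh by 2.74, Chn2 by 2.23, Cd52 by 1.84 and Gm2a by 1.70. Ctsh stood at 123 ± 68.8 CPM in control GMP and at 231 ± 155 CPM with MLL-ENL (0.90 ± 0.44, adjusted p = 0.82), and fell in HPC (-1.83 ± 0.45, adjusted p = 0.0085, edgeR). In the other direction lay Xdh at -2.79, Irak3 at -2.33, Bicd1 at -1.80, Ttc13 at -1.72, Itih5 at -1.68 and Nsmaf at -1.66. Bicd1 was the only one of these 6 not called in HPC (0.73 ± 0.27, adjusted p = 0.086). Prdm16 alone differed between neonatal and 10 week GMP, by -2.53.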

How the results depend on the processing

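None of the 17 genes called in GMP changed sign in the 22 alternatives; for the differences of effects counts alone were recomputed. Of the 17 genes called in GMP, 8 passed in all 22 alternatives (Hoxa7, Hoxa9, Skida1, Cpvl, Sva, Pcdh7, Hnf4a and C1qtnf6). The others were lost in at least 1: Hoxa10 kept its call in 21, Meis1 in 20, Maged1 in 17, H2-Ob and A930004D18Rik in 12, Plxdc2 and Ifitm1 in 11, Fut10 in 9 and Pkib in 8. In place of 17 called genes DESeq2 gave 39, the fit of all 84 libraries 32 and the 2 groups fitted alone 10. The replicate block gave 21 (16 shared), 10 when replicate 5 was left out of it, and 157 with the groups alone. Leaving out 1 library gave 11 to 22. A sex covariate gave 19, with 16 shared and Ifitm1 lost. For the difference from HPC, 69 became 152 with DESeq2, 130 with the groups alone and 128 without the libraries labelled 73 (99 higher and 29 lower); leaving out 1 GMP library gave 40 to 82. The count of 0 for pGM became 2 with DESeq2, and that of 1 for 10 week GMP became 7 with DESeq2 and 2 without the libraries labelled 73; leaving out 1 library kept 0 to 0 and 1 to 1. The transgene difference of 4.92 CPM ranged from 3.93 to 5.57 CPM without 1 library, where 3 against 4 cannot go below an exact permutation p of 0.057. With the replicate block, here an exact permutation within 4 pairs (chosen after seeing the data), the difference of 4.92 CPM had p = 0.125, the smallest it allows. The causes were not tested, apart from the fewer libraries of those fits.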
